A study of Mus musculus with 24 samples.

Results

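The genes described here are the receptor chains for GM-CSF and interleukin-3, the G-CSF receptor, the paired transcription factors STAT5A and STAT5B, and genes that STAT5 is known to switch on. They were taken by symbol from the deposited gene table, and all 10 listed genes were found among its 55487 genes. All 10 also passed the filter on low counts, which left 14535 genes for testing. They were Csf2ra, Csf2rb, Csf2rb2, Il3ra and Csf3r (receptors), Stat5a and Stat5b (transcription factors), and Cish, Socs2 and Pim1 (response genes).

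Messenger RNA was sequenced from dendritic cells grown out of mouse bone marrow in medium that held GM-CSF at 50 ng/mL, supplied as a supernatant. WT cells carried floxed Arpc4 alleles and no CD11c-Cre (ARPC4 Flox/Flox CD11c-Cre -/-), and KO cells carried the same alleles with CD11c-Cre (ARPC4 Flox/Flox CD11c-Cre +/-), a transgene that recombines floxed alleles in cells expressing CD11c. The mice were 8 to 10 weeks old and of both sexes. Each genotype was sampled on days 7, 8, 9 and 10 from 3 numbered mice, which gave 8 groups and 24 libraries. Cells were passaged into fresh medium on days 4 and 7, and the labels do not say whether the day 7 sample was taken before or after that passage. Only cells in suspension were kept, so a culture holds what did not adhere, and the labels give more than 90% of them as CD11c+.

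GM-CSF binds a receptor made of a ligand-specific alpha chain, encoded by Csf2ra, and the common beta chain, encoded by Csf2rb. The beta chain carries the kinase JAK2, which phosphorylates STAT5A and STAT5B, and these move to the nucleus and bind a short palindrome in target genes. Several targets, among them Cish and Socs2, encode inhibitors that dampen the same receptor. In marrow cultures GM-CSF is the factor that drives precursors toward dendritic cells, and the cells depend on its supply in the medium.

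The palindrome was searched for in RefSeq promoter windows (build GRCm38.p6, 250 bases before to 50 bases after a gene's start), to show where it stands near these genes' starts. The motif was TTCNNNGAA, which reads the same on both strands. Windows were matched for 8 of the 10 genes, 11 windows in all because some genes have more than 1 start. The motif stood in 2 of these 11 windows, those of Cish and Csf2rb2, beside 8.3% of all 32851 windows. Cish held 2 copies, which 0.457% of all windows equalled or exceeded. The stretches around the matches are shown with the motif in capitals.

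Cish, chr9:107296654-107296683, plus strand: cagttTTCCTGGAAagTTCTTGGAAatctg

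Csf2rb2, chr15:78305722-78305821, minus strand: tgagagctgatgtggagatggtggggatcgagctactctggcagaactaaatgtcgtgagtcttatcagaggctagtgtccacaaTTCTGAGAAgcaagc

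The Cish copies began 0 and 11 bases after the RefSeq start, inside the first exon of a longer GENCODE transcript that starts at 107296026. The Csf2rb2 copy began 15 bases before the start. A match describes letters in the window and was not a measurement of binding.

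Several facts of the whole series bear on the values. Libraries held 19952047 to 31049798 counts. The 10 most abundant genes took 17.2% to 21.3% of counts on day 7 and 9.31% to 15.1% later. Itgax, which encodes CD11c, was present in every library at 750 to 1661 CPM (counts scaled to library size with edgeR's TMM factors). Other dendritic cell genes differed widely in level, with a highest value of 4040 CPM for Cd74, 178 for Irf4, 23.7 for Zbtb46 and 6.7 for Flt3. Arpc4 was lower in KO by 0.18 to 0.28 on the log2 scale, with adjusted p from 0.18 to 0.69 in edgeR's quasi-likelihood test. KO libraries lay below WT libraries on each day without overlap. On day 7 they were at 155 to 182 against 188 to 199 CPM, and on day 10 at 173 to 185 against 208 to 242 CPM. Gene counts thus showed a small difference and not a loss of the transcript, and reads over the floxed part were not analysed here. The Y-linked gene Ddx3y was above 10 CPM in 1 library of each group. In WT that library was mouse 63 on all days, but in KO the day 7 and day 9 libraries concerned were labelled 64, that of day 8 was labelled 68 and that of day 10 was labelled 67, so KO mouse numbers do not follow 1 animal across days. KO libraries are therefore named as labelled. The tests reported first for each comparison did not use these numbers, but the replicate block and the values without a mouse number did. The libraries with high Ddx3y were also left out in an alternative. Because these are bulk samples, fewer cells of a type and less RNA per cell cannot be told apart. The p-values rest on the spread between libraries within groups. In the tests reported first it was estimated over all 8 groups together, so a WT test also carries the spread of KO libraries.

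Levels between genes were compared per length, as TPM (transcript abundance scaled to a fixed total). Csf2rb was highest, at a mean of 1451 TPM over the 24 libraries with a range of 742 to 1848. It was followed by Csf2rb2 at 882, Csf2ra at 441 and Pim1 at 270 TPM. Cish averaged 87.3, Csf3r 56.0, Stat5b 49.6 and Il3ra 38.9 TPM. Socs2 and Stat5a were lowest, at 19.8 and 19.7 TPM. Among neighbours in this order, only Csf2rb2 and Csf2ra, and Csf2ra and Pim1, had ranges that did not overlap. The first 4 places were the same in all 8 groups. Cish had the widest range, from 6.83 to 152 TPM, a factor of 22.2. It stood 8037th of 14535 genes by TPM in WT on day 7 and 1077th on day 8, and 7835th and 1219th in KO.

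Between day 7 and day 8 most of these genes changed, in the same direction in both genotypes. In WT 9 of 10 passed the threshold of an adjusted p under 0.05 (edgeR, Benjamini-Hochberg over 14535 genes), 6 higher and 3 lower. In KO it was also 9 of 10, 6 higher and 3 lower. Change was common across the transcriptome at this step. Of all genes tested, 43.4% passed in WT, 21.5% higher and 22% lower, and 42% passed in KO, 21.1% higher and 20.9% lower. The median log2 fold change of the 10 genes was 0.49 in WT, beside -0.0038 over all genes, and 0.50 in KO, beside 0.0018. On a log2(TPM + 1) scale the median of all genes moved up by 0.17 in both genotypes, and the calls split 5081 higher to 1722 lower in WT and 5065 to 1628 in KO, against 3120 to 3195 and 3071 to 3039 on counts. On that scale the WT calls among the 10 genes stayed at 6 higher and 3 lower, whereas in KO Stat5b no longer passed. The macrophage marker Lyz2 fell at the same step. It made up 93.1% to 96.4% of the summed level of 9 macrophage markers, which was 58222 to 69711 CPM on day 7 and 32237 to 35175 CPM on day 8 in WT, and 53972 to 67253 and then 21294 to 37769 CPM in KO, without overlap. Of the 9, 2 rose and 3 fell in WT and 0 rose and 4 fell in KO, beside the shares of all genes given above, and none was at 0 in any library. Their part in the changes of the 10 genes was not tested.

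**Figure D1:**
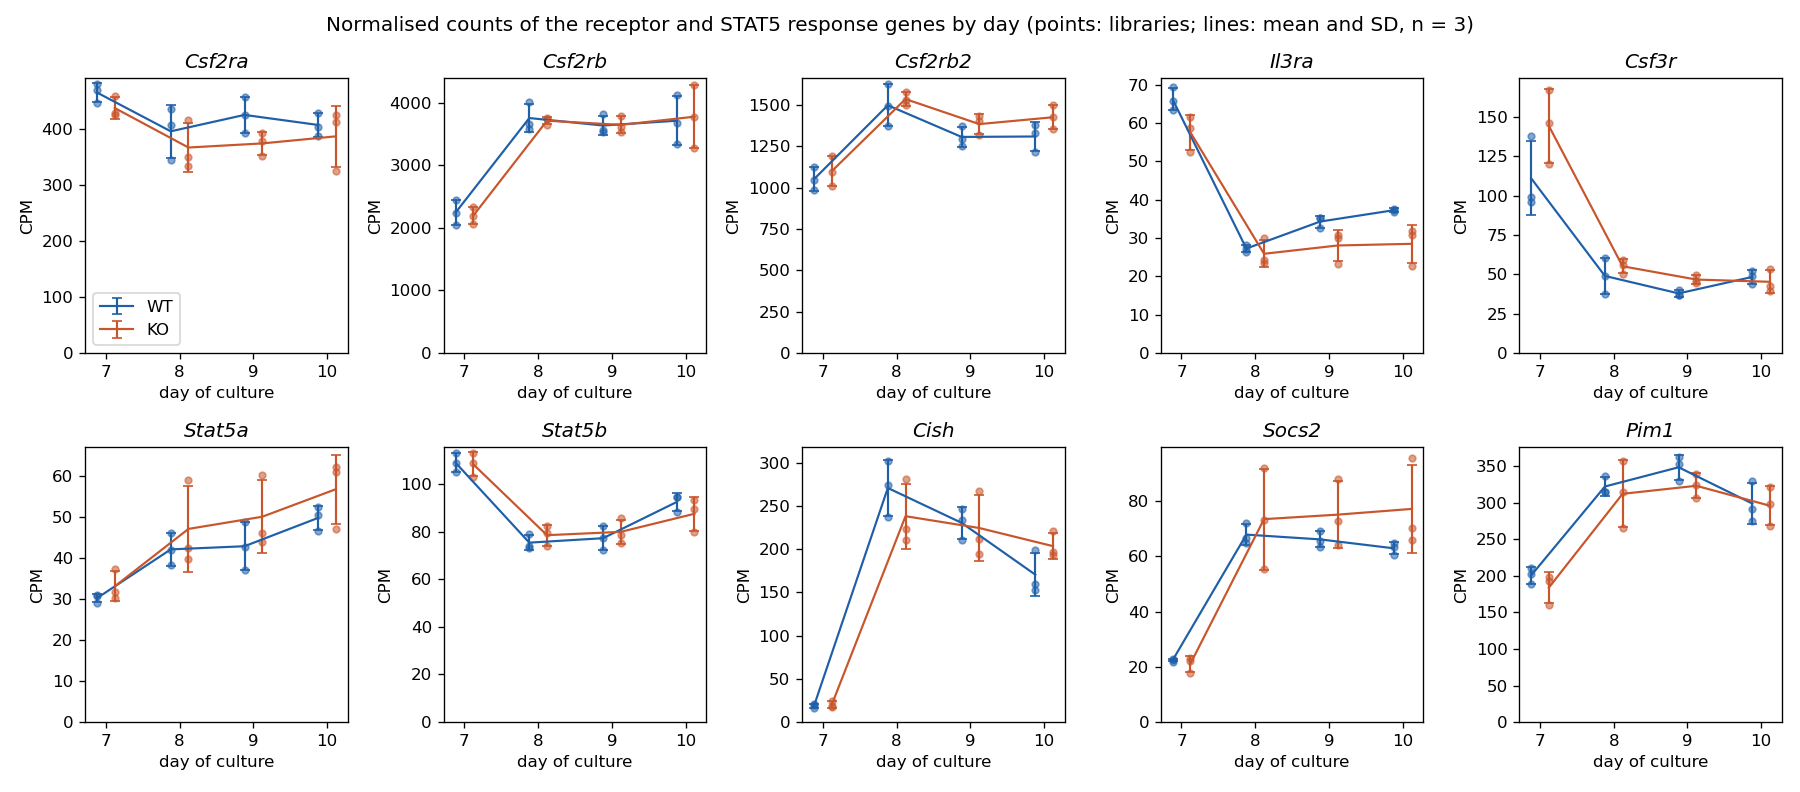
Normalised counts (CPM, linear axes from 0) of the 10 genes on days 7 to 10 of culture, with WT in blue and KO in orange. Points are libraries, and lines join means with SD bars (n = 3). Cish rises from 16.3 to 24.9 CPM on day 7 to 211 to 302 CPM on day 8 in the 6 libraries of each day, while Il3ra and Csf3r fall.

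Cish, a feedback inhibitor that docks on activated cytokine receptors (chromosome 9, 107296026 to 107302784, GENCODE M21 on GRCm38), rose most. In WT it stood at 20.7, 16.3 and 20.1 CPM on day 7 in mice 63, 65 and 66 and at 274, 237 and 302 CPM on day 8. In KO the libraries labelled 64, 67 and 68 gave 17.2, 24.9 and 18.5 CPM on day 7 and 211, 281 and 223 CPM on day 8. Every day 8 library exceeded every day 7 library by a wide margin. The log2 fold change was 3.83 (SE 0.17, adjusted p = 2.87e-12 by edgeR) in WT, a 14.2-fold rise, and 3.56 (SE 0.16, adjusted p = 7.46e-12 by edgeR) in KO, an 11.8-fold rise. Among the 11111 tested genes with a mean log2 CPM over 1, 0.18% rose as much or more in WT and 0.126% in KO.

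Socs2, a suppressor of cytokine signalling (chromosome 10, 95385362 to 95417180), also rose. WT values were 22.7, 21.9 and 22.6 CPM on day 7 and 64.8, 72.1 and 66.8 CPM on day 8. KO values were 23.1, 17.9 and 22.2 CPM on day 7 and 73.2, 91.9 and 55.4 CPM on day 8. The day 8 libraries lay above all day 7 libraries, and they were more spread in KO (SD 18) than in WT (SD 3.8). The log2 fold change was 1.60 (SE 0.16, adjusted p = 1.33e-07 by edgeR) in WT and 1.80 (SE 0.16, adjusted p = 3.28e-08) in KO.

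Pim1, a serine/threonine kinase that promotes survival (chromosome 17, 29490753 to 29496112), rose less. WT values were 202, 189 and 211 CPM on day 7 and 315, 315 and 337 CPM on day 8, and KO values were 160, 199 and 193 CPM and then 265, 357 and 315 CPM. The days did not overlap in either genotype. The log2 fold change was 0.68 (SE 0.10, adjusted p = 2.1e-05 by edgeR) in WT and 0.77 (SE 0.10, adjusted p = 5.94e-06) in KO.

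Among the receptor chains, both beta chains rose. Csf2rb (chromosome 15, 78325752 to 78353847) stood at 2046, 2445 and 2239 CPM in WT on day 7 and at 3582, 4016 and 3665 CPM on day 8. In KO it went from 2341, 2060 and 2183 CPM to 3737, 3643 and 3756 CPM. The days were apart in both genotypes, with log2 fold changes of 0.74 (SE 0.10, adjusted p = 7.66e-06 by edgeR) and 0.76 (SE 0.10, adjusted p = 6.29e-06). Csf2rb2 encodes a second beta chain of mice that serves the interleukin-3 receptor and lies beside Csf2rb (78282507 to 78305721). It went from 984, 1126 and 1047 CPM to 1374, 1629 and 1493 CPM in WT and from 1194, 1009 and 1098 CPM to 1530, 1499 and 1580 CPM in KO. Its log2 fold changes were 0.51 (SE 0.08, adjusted p = 6.27e-05 by edgeR) and 0.48 (SE 0.08, adjusted p = 0.000119). Of the 100-base stretches of the longest Csf2rb transcript, 6.96% also occur in Csf2rb2, so counts of the pair are uncertain where reads could not be placed.

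The alpha chains did not follow. Csf2ra, the GM-CSF-specific chain (chromosome 19, 61223957 to 61228429), had 447, 470 and 481 CPM in WT on day 7 and 437, 345 and 408 CPM on day 8. KO libraries had 460, 426 and 429 CPM and then 351, 335 and 417 CPM. Its days did not overlap, but the log2 fold changes of -0.23 (SE 0.10, adjusted p = 0.0779 by edgeR) and -0.25 (SE 0.10, adjusted p = 0.0561) missed the threshold. The call was near the threshold, and Csf2ra passed in 5 of 19 alternatives in WT and in 5 of 19 in KO. With mouse as a replicate block the WT value was -0.22 with an adjusted p of 0.0255. In WT it also passed without the day 8 library of mouse 63 (-0.31, adjusted p = 0.042 by edgeR). In KO it passed without the day 8 library labelled 68 (-0.35, adjusted p = 0.013) and without all libraries labelled 68 (-0.37, adjusted p = 0.0329). Without the libraries with high Ddx3y it passed in WT (-0.33, adjusted p = 0.0369) and in KO (-0.31, adjusted p = 0.0474). On log2(TPM + 1) the values were -0.01 in WT and -0.03 in KO, or -0.18 and -0.20 relative to the median of all genes.

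Il3ra encodes the alpha chain of the interleukin-3 receptor (chromosome 14, 14346275 to 14356011). It stood at 65.8, 69.3 and 63.5 CPM in WT on day 7 and at 28.3, 26.4 and 27.1 CPM on day 8. In KO it went from 58.8, 52.5 and 61.5 CPM to 24.3, 23.4 and 30.0 CPM. No day 8 library came near a day 7 library, and the log2 fold changes were -1.28 (SE 0.12, adjusted p = 5e-08 by edgeR) in WT and -1.16 (SE 0.12, adjusted p = 1.91e-07) in KO. The interleukin-3 receptor also marks basophils and mast cells. The summed CPM of 10 markers of those cells was 85.0 to 109 in WT on day 7 and 122 to 176 on day 8, and 93.0 to 271 and then 145 to 262 in KO. Of the 9 tested markers, 4 rose and 1 fell in WT and 1 rose and 1 fell in KO, beside 21.5% of all genes higher and 22% lower in WT and 21.1% and 20.9% in KO, and Cma1 was at 0 to 0.289 CPM. In WT the summed level was higher on day 8 without overlap, while in KO the days overlapped. Eosinophil markers fell with Il3ra from day 7 to day 8. The sum of 4 of them was 96.0 to 106 CPM on day 7 and 43.4 to 55.4 CPM on day 8 in WT, and 94.2 to 209 and then 37.8 to 60.1 CPM in KO, without overlap. Of the 4, 3 fell and 0 rose in each genotype (Epx, Prg2 and Siglecf), and none was at 0 in any library. In WT the eosinophil sum was 90.7 to 107 CPM on day 9, which overlaps day 7, and 153 to 219 CPM on day 10, above day 7. In KO it was 76.3 to 116 CPM on day 9, with a median of 93.8 below the lowest day 7 value, and 113 to 178 CPM on day 10. Mean Il3ra was 27.3, 34.3 and 37.2 CPM on days 8, 9 and 10 in WT and 25.9, 28.1 and 28.5 CPM in KO. It stayed below its day 7 level, and the adjusted p of day 9 against day 8 was 0.0971 in WT by edgeR. The part of these cells in the Il3ra result was not tested.

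Csf3r, the receptor for G-CSF and a gene of the neutrophil lineage (chromosome 4, 126024550 to 126044440), also fell. WT values were 99.0, 96.1 and 138 CPM on day 7 and 37.8, 48.9 and 60.3 CPM on day 8. KO values were 120, 167 and 146 CPM and then 56.2, 59.0 and 50.2 CPM. The days were apart, with log2 fold changes of -1.18 (SE 0.16, adjusted p = 5.75e-06 by edgeR) and -1.39 (SE 0.16, adjusted p = 8.66e-07). Of 13 neutrophil markers, 3 fell and 0 rose in WT, and 5 fell and 0 rose in KO, beside 22% and 20.9% of all genes called lower. The list summed to 3326 to 5078 CPM on day 7 and 3536 to 4310 CPM on day 8 in WT, and to 4014 to 7843 and then 3903 to 4970 CPM in KO. In WT the 3 that fell were Ly6g (-2.06, adjusted p = 5.7e-05 by edgeR), Retnlg (-2.77, 0.00051) and Cxcr2 (-1.04, 0.018). In KO these changed by -1.96 (0.00012), -2.42 (0.0018) and -1.17 (0.0089), and Camp (-1.12, 0.0029) and Ngp (-0.8, 0.025) also fell. The rest of the list did not pass in either genotype, among them S100a8 at 0.15 (0.71) and -0.53 (0.17) and Mpo at -0.16 (0.78) and -0.42 (0.45). The most abundant gene of the list in WT was Mmp8, at means of 1491 CPM on day 7 and 1424 CPM on day 8. None of the 13 was at 0 in any library, and their part in the Csf3r result was not tested.

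The STAT5 genes moved in opposite directions. Stat5a (chromosome 11, 100859351 to 100885169) rose from 29.1, 31.0 and 30.7 CPM to 46.2, 38.3 and 42.0 CPM in WT and from 30.3, 37.3 and 31.8 CPM to 42.4, 59.2 and 39.9 CPM in KO. The log2 fold changes were 0.48 (SE 0.15, adjusted p = 0.0131 by edgeR) and 0.51 (SE 0.15, adjusted p = 0.00856). The WT call was lost without mouse 63 (adjusted p = 0.147), without mouse 66 (0.069), without the day 8 library of mouse 63 (0.0609) and without the libraries with high Ddx3y (0.0685). The KO call was lost without the day 8 library labelled 67 (0.0876). Stat5a shares 72 exonic bases, 1.01% of its exonic length, with Stat3, which is transcribed the other way, and the sources used here do not say whether counting used strand.

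Stat5b, whose gene lies beside Stat5a (100780731 to 100850724), fell from 105, 113 and 109 CPM to 73.0, 79.1 and 74.1 CPM in WT and from 103, 109 and 113 CPM to 73.8, 82.4 and 79.4 CPM in KO. No library overlapped between the days. The log2 fold changes were -0.53 (SE 0.07, adjusted p = 4.3e-06 by edgeR) and -0.46 (SE 0.07, adjusted p = 2.51e-05). The KO value on log2(TPM + 1) was -0.23 with an adjusted p of 0.08 in limma. Of the 100-base stretches of the longest transcripts, 6.99% of Stat5a also occur in Stat5b and 5.18% of Stat5b in Stat5a.

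**Figure D2:**
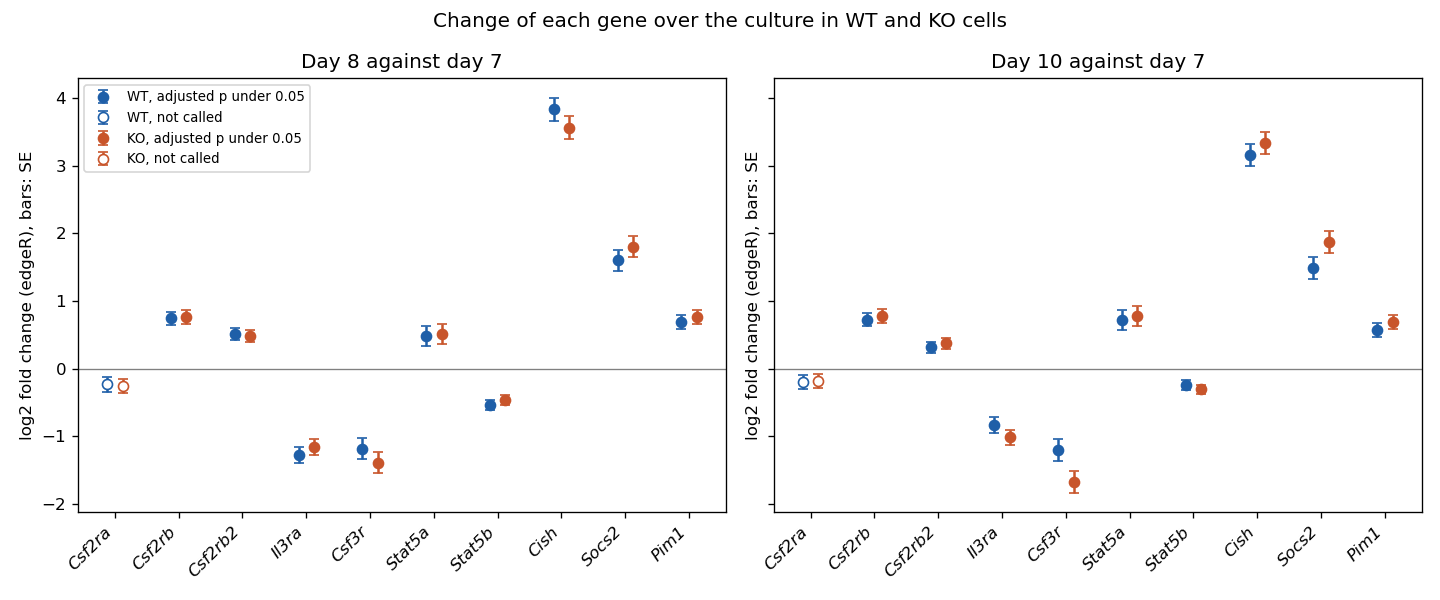
Log2 fold change (edgeR) of each gene on day 8 against day 7 and on day 10 against day 7, with WT in blue and KO in orange. Bars are standard errors, filled points passed an adjusted p of 0.05, and open points did not. Csf2ra is the only gene with open points, Cish is highest at 3.83 in WT and 3.56 in KO on day 8, and Il3ra and Csf3r lie lowest.

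Ratios of TPM within a library show how the proportions of the receptor chains shifted. Csf2rb over Csf2ra went from 1.90 ± 0.13 (SD, n = 3) to 3.79 ± 0.71 in WT between day 7 and day 8 and from 1.97 ± 0.056 to 4.02 ± 0.40 in KO. It stayed between 3.39 and 3.85 as a group mean on days 9 and 10. Stat5a over Stat5b went from 0.216 ± 0.0026 to 0.436 ± 0.058 in WT and from 0.238 ± 0.025 to 0.465 ± 0.085 in KO. Il3ra over Csf2ra went from 0.138 to 0.067 in WT and from 0.127 to 0.068 in KO. Csf2rb over Csf2rb2 moved more slowly, through 1.39, 1.63, 1.81 and 1.84 on days 7, 8, 9 and 10 in WT and through 1.3, 1.57, 1.72 and 1.72 in KO. The ranges of day 7 and day 8 were apart for all 4 ratios in both genotypes. No test was made on the ratios.

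**Figure D3:**
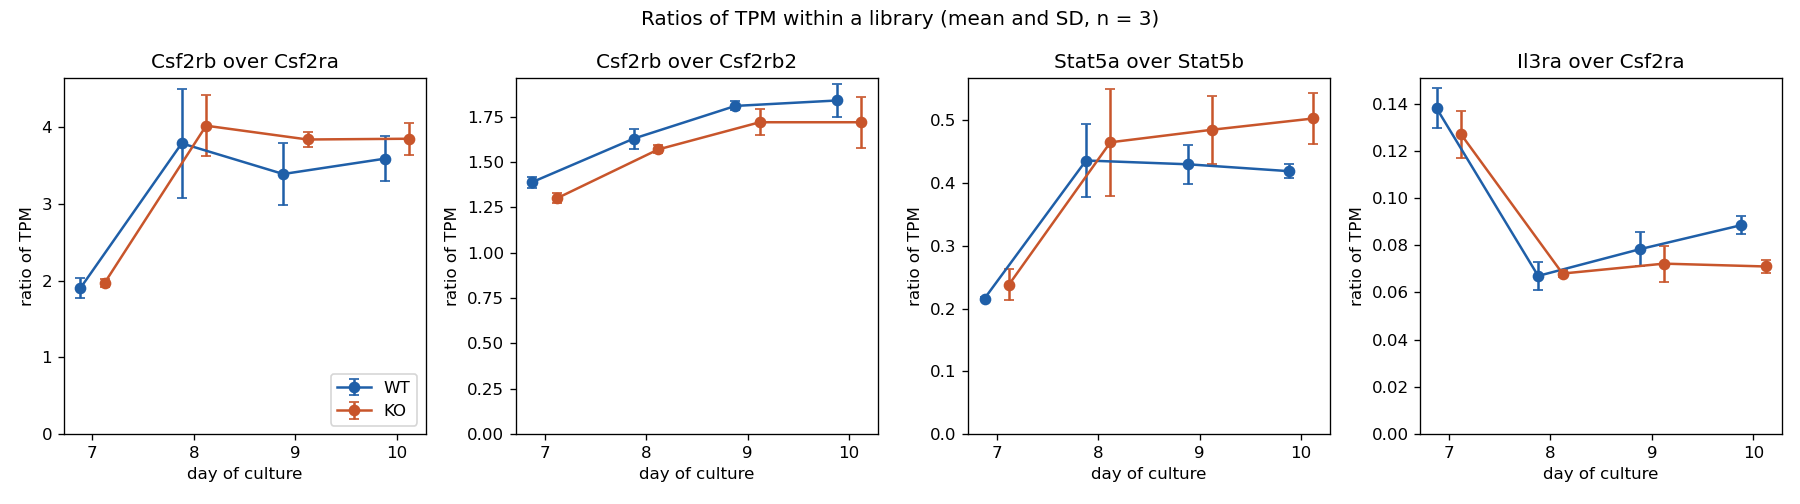
Ratios of TPM within a library (linear axes from 0) for 4 gene pairs by day of culture, as mean and SD of 3 libraries per group, with WT in blue and KO in orange. The ratio of Csf2rb to Csf2ra moves from 1.90 to 3.79 in WT and from 1.97 to 4.02 in KO between day 7 and day 8.

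After day 8 fewer genes passed, both among the 10 and over all genes, so the low counts are no result about the 10 genes. From day 8 to day 9, 0 of 10 passed in WT and 0 of 10 in KO, beside 5.4% and 2.33% of all genes (edgeR). At an unadjusted p under 0.05 it was 3 in WT and 0 in KO, beside 21.8% and 18.7% of all genes. With mouse as a replicate block 3 WT genes passed, beside 19% of all genes in that fit, namely Il3ra (log2 fold change 0.33, adjusted p = 0.00188 by edgeR), Csf3r (-0.35, 0.0181) and Csf2rb2 (-0.19, 0.0265). From day 9 to day 10, 1 of 10 passed in WT and 0 in KO, beside 3.6% and 0.0963% of all genes. At an unadjusted p under 0.05 it was 4 and 0, beside 17.7% and 12% of all genes.

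The WT gene that passed from day 9 to day 10 was Stat5b, which went from 82.2, 72.2 and 77.4 CPM to 94.5, 88.3 and 94.7 CPM. Its log2 fold change was 0.26 (SE 0.07, adjusted p = 0.044 by edgeR), and the call was lost when any 1 mouse or any 1 of the 6 libraries was left out. Cish went from 247, 211 and 234 CPM to 153, 199 and 160 CPM in WT over the same step, without overlap, at -0.43 (SE 0.15, adjusted p = 0.11). With the replicate block 4 WT genes passed, Cish among them at -0.44 (adjusted p = 0.00747), with Csf3r, Stat5b and Pim1, beside 15.8% of all genes in that fit. In KO, Cish was 195, 267 and 212 CPM on day 9 and 221, 193 and 197 CPM on day 10, which overlap. Without the libraries labelled 67, Stat5a (0.44, adjusted p = 0.0108) and Stat5b (0.23, adjusted p = 0.0493) passed in KO, and the share of all genes called was then 14.4%.

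By day 10 most of the genes still differed from their day 7 levels. Against day 7, 9 of 10 passed in WT and 9 of 10 in KO, beside 37% and 36.8% of all genes (edgeR). Csf2ra did not pass, at -0.19 (adjusted p = 0.157) and -0.18 (adjusted p = 0.192). Cish was still 3.16 (SE 0.16) higher on the log2 scale in WT and 3.33 (SE 0.16) in KO, Socs2 1.49 and 1.87, Csf2rb 0.73 and 0.78, and Stat5a 0.72 and 0.78. Il3ra stood at -0.83 and -1.01 and Csf3r at -1.20 and -1.67. Stat5b was at -0.24 (adjusted p = 0.0109) in WT and -0.31 (adjusted p = 0.00186) in KO on counts, but at 0.044 and -0.00 on log2(TPM + 1), where the median of all genes moved by 0.21 and 0.25. The WT call of Stat5b was lost without the filter (adjusted p = 0.0646 by edgeR), without mouse 65 (0.154), without mouse 66 (0.0669) and without the library of mouse 65 from day 7 (0.0553) or day 10 (0.0507). The WT call of Csf2rb2, at 0.32 (adjusted p = 0.00592), was lost without mouse 66 (0.0777), and its KO call, at 0.37 (adjusted p = 0.00169), in a fit of only the groups compared (0.0613). On log2(TPM + 1) 5806 genes were called higher and 1071 lower in WT and 6439 and 1060 in KO, against 2746 and 2630, and 2870 and 2483, on counts. Relative to the median of all genes Stat5b was at -0.17 and -0.25 on log2(TPM + 1).

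Summed levels of some marker lists differed over the same span. The dendritic cell sum went from 2422 to 3023 CPM on day 7 to 5262 to 7088 CPM on day 10 in WT and from 2713 to 3348 CPM to 4757 to 8029 CPM in KO, without overlap. Of its 11 genes, 7 rose and 1 fell in WT and 7 rose and 0 fell in KO, beside 18.9% of all genes higher and 18.1% lower in WT and 19.7% and 17.1% in KO. The macrophage sum on day 10 was 29962 to 33238 CPM in WT and 17357 to 32227 CPM in KO, below day 7, and 0 of 9 rose and 6 fell in WT and 0 rose and 7 fell in KO. The neutrophil sum was 5721 to 7750 CPM on day 10 in WT, above day 7, while Csf3r was lower, and in KO it was 4958 to 6535 CPM, which overlaps day 7. Of its 13 genes, 5 rose and 1 fell in WT and 0 rose and 2 fell in KO. The part of these cells in the day 10 values was not tested.

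The genotype comparison asks whether these genes differ between cells labelled KO and WT for Arpc4, which encodes a subunit of the Arp2/3 actin nucleator. No gene of the 10 passed between KO and WT on day 7, 8, 9 or 10 by edgeR, beside 1.45%, 0.00688%, 0.00688% and 0.0138% of all genes. At an unadjusted p under 0.05 the counts were 1, 0, 1 and 1, beside 15.7%, 5.91%, 8.15% and 7.3% of all genes, and DESeq2 and limma also called 0 of 10 on each day. The difference between genotypes in the day 7 to 8 change passed for 0 of 10 genes, beside 0.0275% of all genes, and that in the day 7 to 10 change for 0 of 10, beside 0.0619%, with 0 and 1 at an unadjusted p under 0.05, beside 4.71% and 6.31%. The 95% intervals of KO against WT lay within 0.736-fold to 1.63-fold on day 7, 0.71-fold to 1.42-fold on day 8, 0.688-fold to 1.56-fold on day 9 and 0.646-fold to 1.53-fold on day 10 for all 10 genes. These intervals leave room for differences of that size.

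Il3ra was lower in KO on each day, at log2 fold changes of -0.20, -0.08, -0.29 and -0.39 on days 7 to 10. On day 10 WT libraries had 37.7, 37.4 and 36.7 CPM and KO libraries 22.8, 31.9 and 30.8 CPM. The groups were apart on days 7, 9 and 10 and overlapped on day 8. The day 10 interval was -0.63 to -0.14 with an unadjusted p of 0.00331, but the adjusted p over all genes was 0.362 by edgeR. It was no lower than 0.0514 in any alternative. Without the day 10 library labelled 64 the value was -0.23. Csf3r was 0.38 higher in KO on day 7 (SE 0.16, adjusted p = 0.235 by edgeR), with KO libraries at 120 to 167 CPM and WT libraries at 96.1 to 138 CPM, which overlap. On that day the summed neutrophil markers were at 4014 to 7843 CPM in KO and 3326 to 5078 CPM in WT, which overlap. Of the 13, 0 passed between KO and WT by edgeR, beside 1.45% of all genes, and their part in the difference was not tested.

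**Figure D4:**
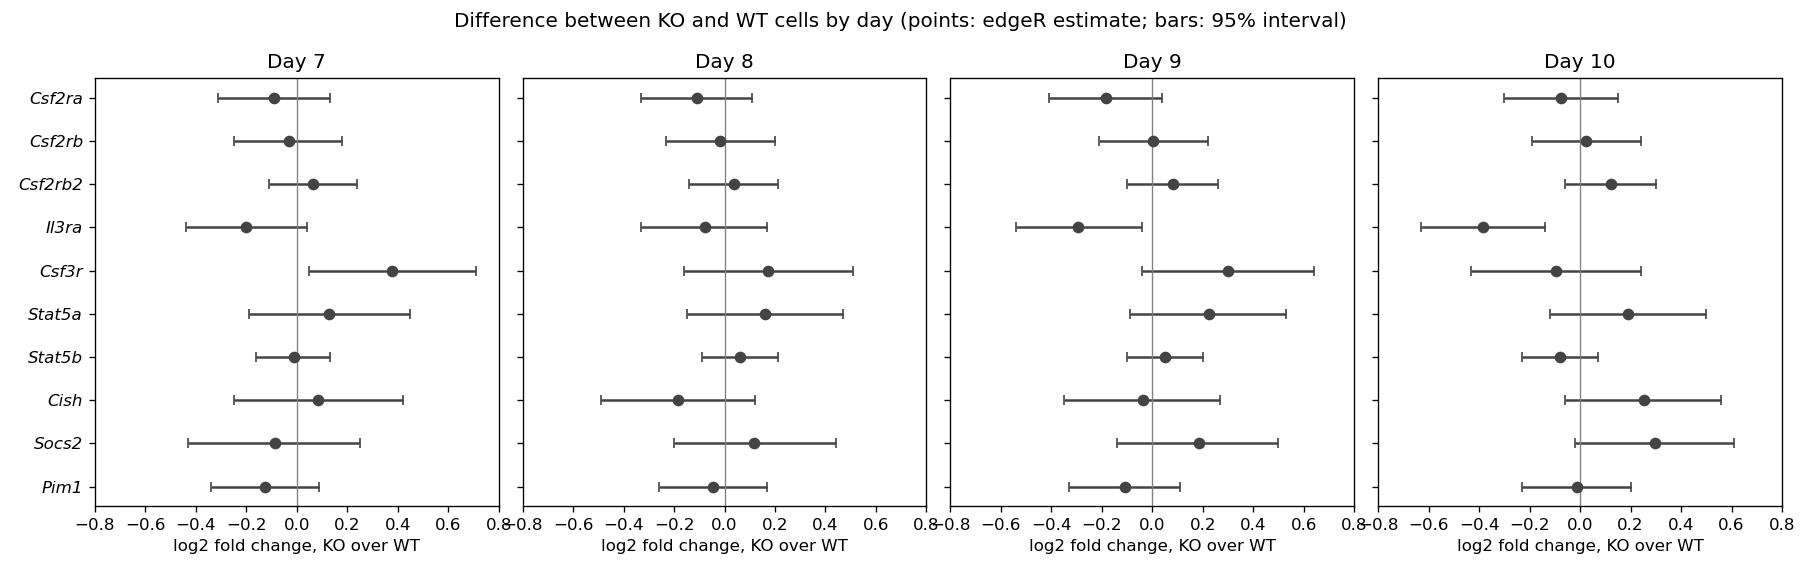
Log2 fold change of KO over WT for each gene on days 7, 8, 9 and 10 (edgeR estimate, with 95% intervals as bars). The intervals lie between -0.63 and 0.71. Those of Il3ra on days 9 and 10 and of Csf3r on day 7 exclude 0, without an adjusted p under 0.05.

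Within KO 1 library on each day stood apart in several of these genes. Il3ra was lowest in the library labelled 67 on days 7, 8 and 9, at 52.5, 23.4 and 23.3 CPM, and in the library labelled 64 on day 10, at 22.8 CPM. The same libraries had the highest Stat5a, at 37.3, 59.2, 60.3 and 62.3 CPM, and the highest Cish and Pim1 of their group on each day. They also had the lowest Csf2ra and Csf2rb. Socs2 was highest in them on days 8, 9 and 10, at 91.9, 88.2 and 95.6 CPM, but lowest on day 7, at 17.9 CPM. The summed CPM of 11 dendritic cell markers was highest in these libraries on every day, at 3348, 4732, 6540 and 8029, and that of 9 macrophage markers lowest, at 53972, 21294, 18480 and 17357. The part of these markers in the result was not tested. All 9 KO calls of day 8 against day 7 except that of Stat5a held without the day 8 library labelled 67.

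Other genes of the pathway were read from 5 lists with 70 genes, of which 66 were tested. Csf2, the gene for GM-CSF itself, was not tested: it had 0 to 4 counts in a library. From day 7 to day 8, 24 of 66 rose and 15 fell in WT, and 24 rose and 14 fell in KO (edgeR). Over all genes 21.5% were called higher and 22% lower in WT and 21.1% and 20.9% in KO, so the counts that fell lay near the share over all genes. The median log2 fold change was 0.10 in WT and 0.15 in KO, beside medians over all genes of -0.004 and 0.002.

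The counts of the lists that follow stand beside the same shares of 21.5% and 22% in WT and 21.1% and 20.9% in KO. Of 16 phosphatases and inhibitors, 7 rose and 2 fell in WT and 5 rose and 1 fell in KO. Socs1, a strong inhibitor of JAK kinases, led them at 3.39 (SE 0.11, adjusted p = 5.6e-14 by edgeR) in WT, from 6.31 ± 0.31 to 66.3 ± 5.0 CPM (SD, n = 3). In KO it changed by 3.42 (SE 0.11, adjusted p = 2.6e-14), from 7.58 ± 0.83 to 81.3 ± 5.5 CPM. Among 15 kinases and adaptors, 4 rose and 5 fell in WT and 3 rose and 5 fell in KO, with the counts that rose near the share over all genes. Jak3, the kinase of the common gamma chain, changed by -1.02 in WT and -1.12 in KO. Jak2, which serves the GM-CSF receptor and was chosen for that role after its values were seen, was at 0.45 (adjusted p = 0.2) and 0.66 (adjusted p = 0.062).

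Of 22 other genes reported to respond to STAT5, 9 rose and 6 fell in WT and 13 rose and 4 fell in KO, beside 21.5% and 22% of all genes in WT and 21.1% and 20.9% in KO. The counts that fell were near those shares. Id1, an inhibitor of basic helix-loop-helix factors, changed by 3.88 (SE 0.27, adjusted p = 1.1e-09 by edgeR) in WT and 3.75 (SE 0.26) in KO. Il2ra, a chain of the interleukin-2 receptor, changed by 2.66 and 2.35, and Ccnd2, which encodes cyclin D2, by 2.28 and 2.62. Among those that fell, Bcl6, a repressor whose gene STAT5 is known to silence, changed by -2.38 and -2.0. Irf8, a dendritic cell and monocyte lineage factor, changed by -1.15 and -1.10, and Fos by -1.40 and -0.73. Of 5 other STATs, 2 rose and 1 fell in WT and 1 rose and 1 fell in KO. Of 8 tested receptors and ligands, 2 rose and 1 fell in WT and 2 rose and 3 fell in KO.

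Between genotypes 1 of the 66 passed on day 7 and 0 on each of days 8 to 10 (edgeR). On day 7 1.45% of all genes passed, close to the share that 1 of 66 makes, so the count is no result about these lists. That gene was Bcl2, a survival gene, which had 34.9 ± 4.2 CPM in WT against 21.9 ± 3.0 CPM in KO (SD, n = 3), a log2 difference of -0.67 (SE 0.17, adjusted p = 0.047).

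**Figure D5:**
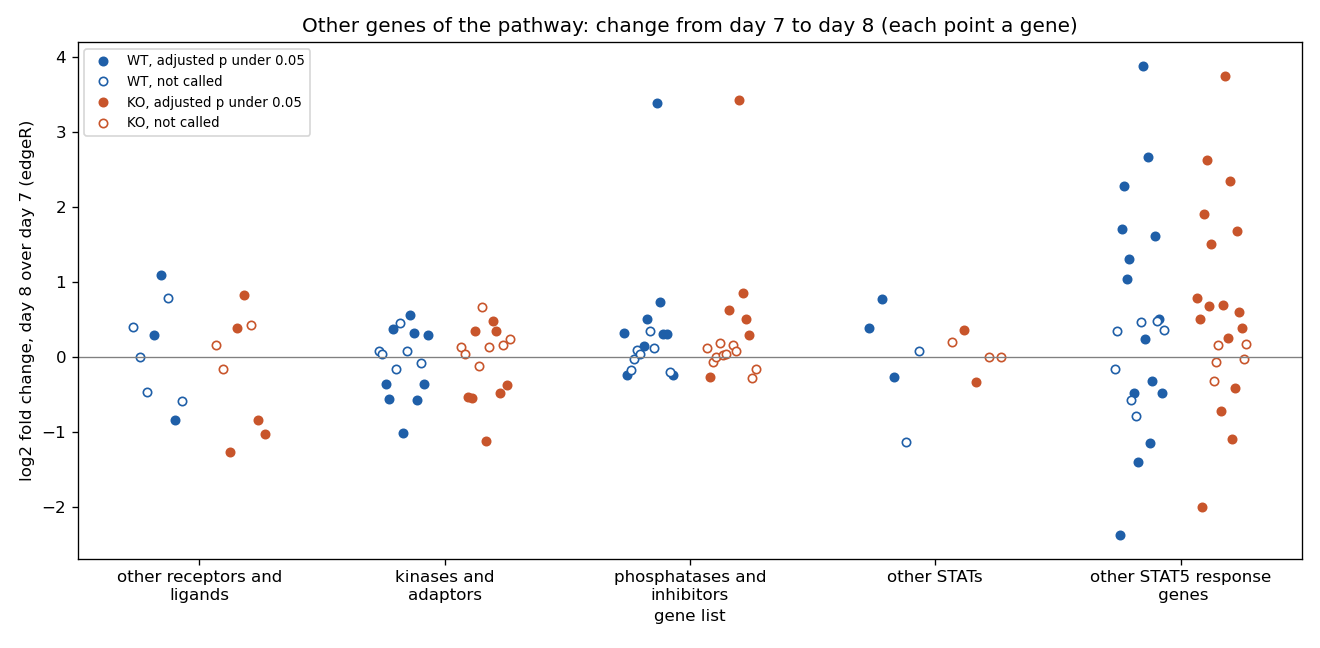
Log2 fold change from day 7 to day 8 (edgeR) of the 66 tested genes in 5 lists, each point a gene, with WT in blue and KO in orange. Filled points passed an adjusted p of 0.05 and open points did not. Socs1 stands alone at 3.39 and 3.42 among the phosphatases and inhibitors, and the STAT5 response genes spread from -2.38 to 3.88.

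Across the 24 libraries, some of the genes varied together. These correlations of log2 CPM describe libraries that share days and cultures. Cish correlated with Socs2 at r = 0.965, with Pim1 at 0.95 and with Csf2rb at 0.937, and with Il3ra at -0.935. Stat5a and Stat5b correlated at -0.434. Among 10579 genes, those most like Cish were Coro2a (r = 0.99), Socs1 (0.988) and Car4 (0.987), and those most like Socs2 were Enah (0.989), Ccnd2 (0.979) and Cad (0.978). Il3ra was most like Aldh2 (0.984), Csf2rb most like Inka2 (0.971), Csf2rb2 most like Gas7 (0.938) and Csf3r most like Tmem51 (0.95). Pim1 was most like Srsf2 (0.958), Stat5a most like Tyk2 (0.96), Stat5b most like Bcl9 (0.958) and Csf2ra most like Nagk (0.885).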

How the data were processed

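The authors deposited raw counts and TPM per gene for 24 libraries, with a table of symbols. The submitters' processing notes name FastQC 0.11.9, STAR 2.6.1, DESeq2 1.22.2 and mm10, and the counter, its strand setting and the gene lengths behind TPM are not given in the sources used here. Of 55487 identifiers, 55094 matched GENCODE M21 on GRCm38 with version.

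Deposited counts were filtered with filterByExpr (14535 genes kept), scaled by TMM and fitted with edgeR 4.0.16 in R 4.3.3 by quasi-likelihood, with 1 coefficient per group over 24 libraries (16 residual degrees of freedom). Adjusted p is Benjamini-Hochberg over all tested genes, with a threshold of 0.05. Each standard error is the absolute log2 fold change over the square root of F. The code was tested on simulated data. Alternatives were DESeq2 1.42.0 (size factors and test), no filter, a mean count of at least 50, a fit of the compared groups alone, an added fold minimum (log2 of 1 either way), limma 3.58.1 on log2(TPM + 1), mouse as a block, Xist as a covariate, each mouse or library left out, and, added after seeing the data, leaving out libraries with high Ddx3y.

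The labels number the mice, which would pair libraries across days. In WT the deviations of all 18 same-numbered pairs correlated above 0.1 (0.149 to 0.737). In KO 7 of 18 did (-0.796 to 0.798). No 2 replicates agreed within counting noise. Library kits of 2 kinds are named without saying which library used which. Members and gene lists were chosen with earlier results of these data known. Named pathway genes were up to 3 per direction with the largest change among those called with mean log2 CPM over 1, and likeness named the genes with the highest Pearson r.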

Additional observations from a re-analysis of the deposited data

How the results depend on the processing

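The alternatives gave 1105 values for 55 log2 fold changes, a chosen part of those of the 10 genes in 14 comparisons. Of these values 1037 kept direction and side of the threshold, 49 lost and 15 gained a call, and 4 changed sign. Of those 4, 3 were on log2(TPM + 1), where the median of all genes also moved. Calls gained outside this tally were Csf2rb2 and Csf3r from day 8 to day 9 and Csf3r and Pim1 from day 9 to day 10 in WT, and Stat5a and Stat5b from day 9 to day 10 in KO. With a log2 fold change of 1 or more either way required, 4 of the 10 genes passed on day 8 in WT and 4 in KO, and 3 and 4 on day 10 against day 7. From day 8 to day 9 in WT, 1 gene passed in a fit of only the groups compared, 1 on log2(TPM + 1) and 3 with mouse as a replicate block. From day 9 to day 10 in WT the count of 1 became 0 without the filter, 0 with that fold minimum, 0 on log2(TPM + 1), 0 without libraries with high Ddx3y, 2 in a fit of only the groups compared and 4 with the replicate block, and it was 0 to 0 with a mouse or library left out. From day 9 to day 10 in KO the count ranged from 0 to 2 with a mouse or library left out, the 2 being without the libraries labelled 67. On log2(TPM + 1) the day 10 against day 7 value was 0.0898 for Csf2ra and 0.044 for Stat5b in WT, and 0.12 for Csf2ra in KO. Relative to the median of all genes these were -0.12, -0.17 and -0.13, in the direction of the counts. The KO minus WT difference of the Socs2 day 7 to 8 change ranged from -0.10 (without the libraries labelled 67) to 0.41 with a mouse or library left out. The causes were not tested. Apart from these WT counts and the call of Csf2ra on day 8 in WT, the replicate block changed no call among the WT results recomputed. In KO the numbers do not follow 1 animal, so calls under that block say nothing about pairing. The lowest count of any of the 10 genes in a library was 349, for Cish, and each group held 3 libraries. What limits the precision was not tested.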
